A study of Mus musculus with 16 samples.

Results

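The insulin signalling components described here are 9 genes that carry the signal of insulin from the cell surface to transcription in the liver cell: Insr, Irs1, Irs2, Pik3r1, Pik3ca, Akt1, Akt2, Foxo1 and Foxo3. They were found as the array spots that are not controls and whose gene name is 1 of these symbols, or Foxo3a, the older name of Foxo3. Spots of 8 of the 9 genes were found, 26 spots with 17 different probes, of 43379 spots with 41174 probes for 27779 genes in all. No spot carried the name Irs2, so no transcript values are given for it. Signal above background allowed a test of 7 genes, among 18508 genes tested. Both probes of Foxo3 were too dim to test.

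Insulin binds its receptor (Insr), a tyrosine kinase that phosphorylates the adaptor proteins Irs1 and Irs2. The adaptors recruit phosphoinositide 3-kinase (PI3K), made of a regulatory subunit such as the product of Pik3r1 and a catalytic subunit such as that of Pik3ca. Its lipid product activates the kinases Akt1 and Akt2, which phosphorylate the transcription factors Foxo1 and Foxo3 and thereby keep them out of the nucleus. In fasting, Foxo1 drives liver genes of glucose production, and glucocorticoids, the steroid hormones of stress and fasting, oppose several actions of insulin. The arrays measured transcript abundance, which says nothing of phosphorylation.

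All samples were livers of male C57BL/6 mice, 3 months old. Wild-type mice and mice with a liver knockout of GR, the glucocorticoid receptor encoded by Nr3c1, were each left untreated or given dexamethasone, a synthetic glucocorticoid, with 4 arrays per group. Controls are called untreated after the sources of the samples, although the treatment protocol speaks of a vehicle and the titles of the knockout samples carry the word PBS. Not given in the sources used here are the driver of the deletion, the deleted part of the gene, and the dose, route and duration of dexamethasone. Nothing states that replicates came from different mice. The p-values therefore measure the spread between these samples, which may be technical. In whole liver, fewer cells of a type and less RNA per cell cannot be told apart.

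Precision is limited by the number of arrays. Each array was scaled to the 75th percentile of its signal, which was lowest on untreated knockout array 1 (309), next on array 4 of untreated wild type (400) and 523.9 to 691.1 elsewhere. Untreated knockout array 1 correlated with its group at a mean r of 0.963, against 0.975 to 0.989 for the other arrays. The 4 arrays of a group shared a slide of their own, and therefore slide and group cannot be told apart. Nr3c1 was lower in knockout than in wild type by 1.99 on the log2 scale without dexamethasone (log2 -1.99, SE 0.145, 3.96-fold, limma adjusted p = 1.71e-05) and by 1.96 with it (log2 -1.96, SE 0.145, 3.9-fold, limma adjusted p = 6.32e-06). A weaker probe of Nr3c1 is given with the alternatives in the closing section. All 8 hepatocyte markers, among them Alb and Ttr, were well above background on all 16 arrays.

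Most genes were read by more than 1 probe, each a 60-base oligonucleotide, and the probe with the highest mean signal stood for its gene. The probes below are shown because Foxo1 gave the largest difference among the 7 genes, and because the probes of Pik3r1 gave different values. The array annotation places them on the mm7 build. No gene models of that build were used, so exon and intron are not stated. The Foxo1 probe lies on the plus strand at chr3:52472787-52472846. Of the Pik3r1 probes, A_52_P307938 lies on the minus strand at chr13:98797997-98799039, a span of 1043 bases for 60 bases of probe, and A_52_P407239 at chr13:98794799-98794858. Sequences run 5′ to 3′ and no part is marked.
Foxo1, A_51_P138044: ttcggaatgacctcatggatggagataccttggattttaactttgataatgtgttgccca
Pik3r1, A_52_P307938: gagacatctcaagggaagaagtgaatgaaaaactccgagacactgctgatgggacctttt
Pik3r1, A_52_P407239: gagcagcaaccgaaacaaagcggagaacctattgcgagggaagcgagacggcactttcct

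The other probes that stood for their genes were A_52_P6490 for Insr (chr8:3058920-3058979, minus strand), A_52_P175242 for Irs1 (chr1:82447810-82447869, minus), A_51_P511236 for Pik3r1 (chr13:98792997-98793056, minus), A_52_P577116 for Pik3ca (chr3:32273117-32273176, plus), A_51_P237553 for Akt1 (chr12:110178813-110178872, minus) and A_52_P2977 for Akt2 (chr7:24558143-24558202, plus). The Akt1 probe was spotted 10 times on each array, and 7 of its spots over all arrays were marked as outlying and set to missing. Each of the 15 probes of the 7 genes tested was well above background on all 16 arrays. None had a saturated spot.

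Levels are given as log2 signal minus the array's 75th percentile, so that percentile is at 0, and a level of 1 probe is not set against that of another. A gene was called where limma, fitted to all 16 arrays and all genes at once, gave a Benjamini-Hochberg adjusted p under 0.05.

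The largest differences lay between the dexamethasone-treated groups. In treated knockout liver, transcripts of the transcription factor Foxo1 and of the PI3K regulatory subunit Pik3r1 were lower than in treated wild type, by 1.22 and 0.98 on the log2 scale, and those of the kinase Akt1 were higher by 0.54. Limma called these 3 of the 7 genes (1 higher and 2 lower), while it called 22.4% of all genes tested, 14.2% higher and 8.20% lower. The median difference was 0.00325 over the 7 genes and 0.0909 over all genes. The 2 groups did not overlap for 4 of the 7 genes, the fourth being Pik3ca, and for 31.7% of all genes.

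With dexamethasone in wild type Akt1 was lower by 0.48, and limma called that gene alone of the 7. It called 12.0% of all genes in this comparison, 5.11% higher and 6.88% lower. Before adjustment 3 of the 7 had p under 0.05, Pik3r1 and Foxo1 being the others. Groups did not overlap for 1 of the 7 and for 22.1% of all genes. The median was -0.042 over the 7 genes and -0.038 over all genes.

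Limma called 0 of the 7 genes in the remaining comparisons. Dexamethasone in knockout called 3.63% of all genes (1.19% higher, 2.44% lower), and 2 of the 7, Irs1 and Pik3ca, passed an unadjusted p under 0.05. Untreated knockout against untreated wild type called 2.81% of all genes (2.06% higher, 0.751% lower), and 2 of the 7, Pik3r1 and Foxo1, passed unadjusted. The interaction, which tests whether the response to dexamethasone differed between the genotypes, called 4.63% of all genes (1.94% higher, 2.69% lower), and 2 of the 7, Akt1 and Foxo1, passed unadjusted. With array weights in the fit, limma called 2, 1 and 1 of the 7 in these comparisons. Calls over all 18508 genes rose as well, from 671, 521 and 856 to 1795, 1574 and 2714. Groups did not overlap for 1 of the 7 with dexamethasone in knockout, where 9.76% of all genes did not, and for 0 of the 7 between the untreated groups, where 11.6% did not.

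**Figure D1:**
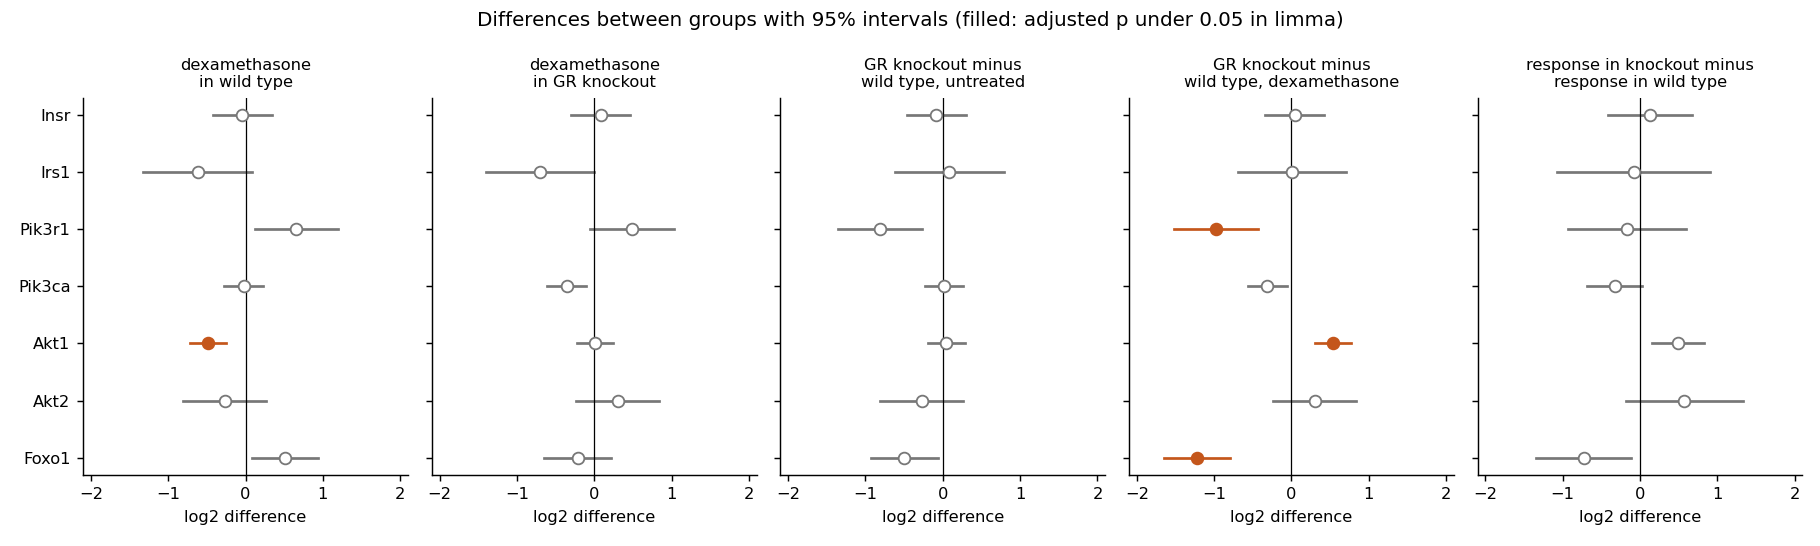
Log2 differences of the 7 genes tested (rows) in the 5 comparisons (panels); points are estimates from limma, lines their 95% intervals, filled points have an adjusted p under 0.05. Akt1 is called lower with dexamethasone in wild type, Foxo1 and Pik3r1 are called lower and Akt1 higher in treated knockout, and every other interval belongs to a gene that was not called.

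The receptor and the adaptor came first in the pathway and none of their differences was called by the fit described above. Insr lay between -3.62 and -3.37 in untreated wild type, between -3.80 and -3.10 in treated wild type, between -3.81 and -3.15 in untreated knockout and between -3.74 and -3.33 in treated knockout. The groups overlapped throughout, and the 4 differences between pairs of groups ran from -0.09 to 0.09 with an SE of 0.179 each. The interval of the difference between the treated groups reached from -0.34 to 0.42, so a change within it cannot be told from none. Untreated knockout array 1 held the highest value of its group, -3.15. Another probe, A_52_P494514, bears the name D630014A15Rik, which RefSeq lists as a synonym of Insr. It was kept apart by the rule although it was brighter, with a mean level of 0.71 against -3.565 for the Insr probe. Insr was thus read from 1 dim probe, though one well above background on all 16 arrays. The differences of D630014A15Rik were not called either (-0.31 with dexamethasone in wild type, SE 0.24, and 0.08 between the treated groups, SE 0.24).

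Irs1, the adaptor that links the receptor to PI3K, was 2.37, 2.11, 2.31 and 1.40 on the untreated wild-type arrays and 0.86, 1.79, 1.52 and 1.53 on the treated ones. It was 2.44, 1.99, 2.48 and 1.62 in untreated knockout and 0.94, 0.85, 1.60 and 2.32 in treated knockout. Means were lower with dexamethasone in both genotypes, but 1 untreated wild-type array lay among the treated ones and treated knockout array 4 lay among the untreated ones. The difference was -0.62 in wild type (SE 0.328, adjusted p = 0.247) and -0.70 in knockout (SE 0.328, adjusted p = 0.297), and neither was called by limma. With array weights the wild-type difference was -0.81 and was called (adjusted p = 0.038). The 2 responses differed by -0.08 (SE 0.464), with an interval from -1.07 to 0.91. Between genotypes the differences were 0.09 untreated and 0.00325 treated. The dimmer probe of Irs1, A_52_P171212, gave -0.39 in wild type (SE 0.312) and -0.51 in knockout (SE 0.312), not called either.

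**Figure D2:**
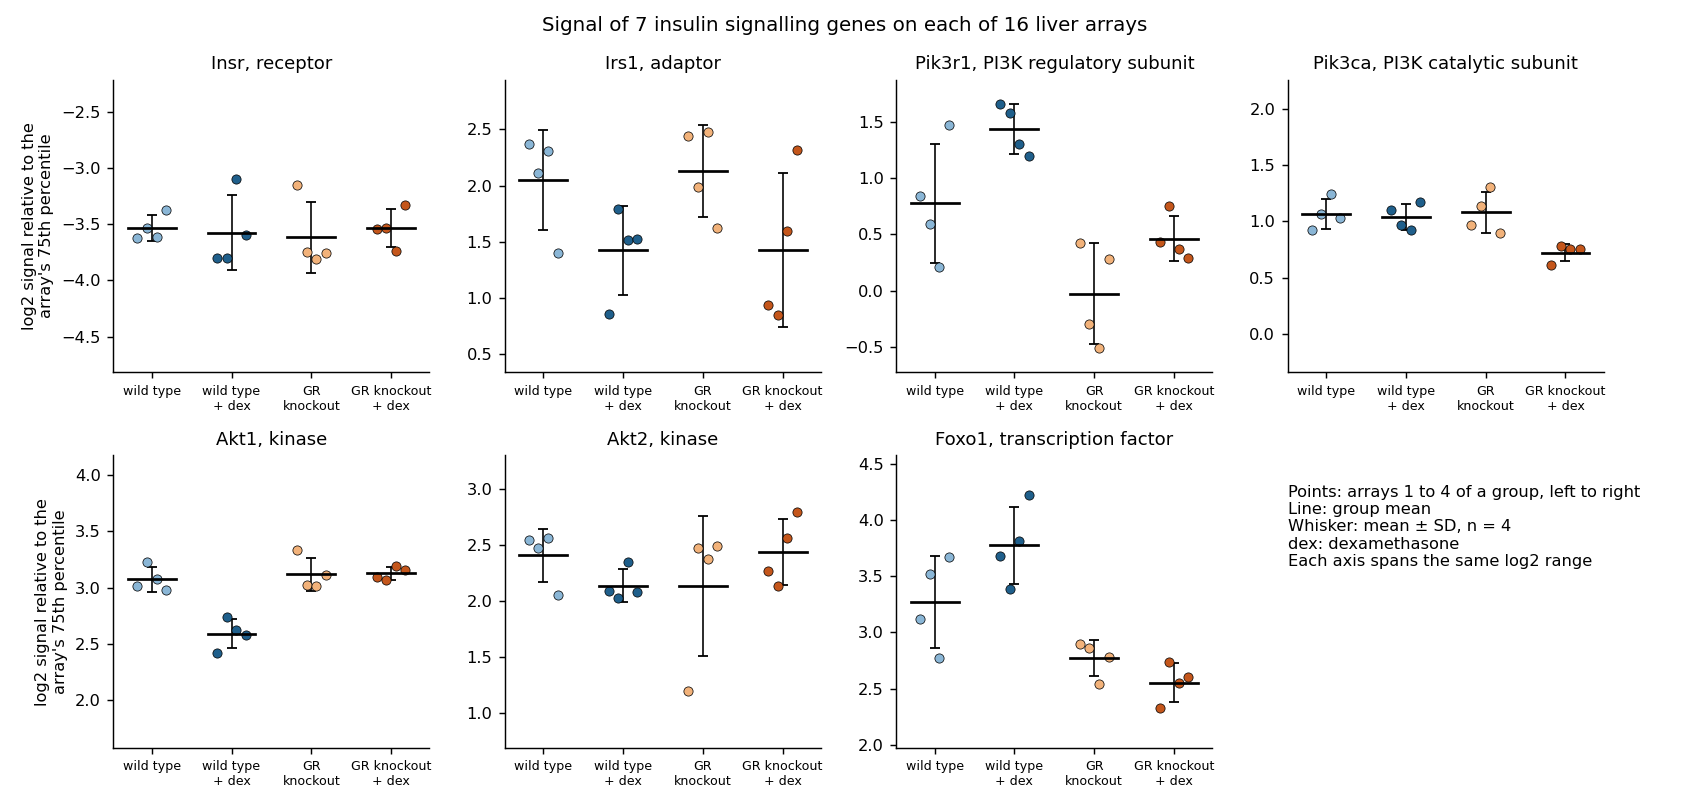
Level of each of the 7 genes on each array (log2 signal relative to the array's 75th percentile), with group means (lines) and mean ± SD (whiskers, n = 4). For Akt1 all treated wild-type arrays (2.42 to 2.74) lie below every other array, and for Foxo1 all treated knockout arrays (2.33 to 2.74) lie below every treated wild-type array (3.39 to 4.22).

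Pik3r1, the p85 regulatory subunit of PI3K, was 0.84, 0.59, 0.21 and 1.47 in untreated wild type and 1.66, 1.58, 1.30 and 1.20 in treated wild type. In knockout it was 0.42, -0.30, -0.51 and 0.28 untreated and 0.43, 0.75, 0.37 and 0.29 treated. Every treated knockout array lay below every treated wild-type array, while the untreated groups overlapped. The difference between the treated groups was -0.98 (SE 0.254, 1.97-fold, adjusted p = 0.0137) and was called by limma. The untreated groups differed by -0.81 (SE 0.254, 1.75-fold, adjusted p = 0.0997), which was not called. Group means from high to low were 1.44 ± 0.221 in treated wild type, 0.78 ± 0.527 in untreated wild type, 0.46 ± 0.203 in treated knockout and -0.030 ± 0.447 in untreated knockout (SD, n = 4 each), and no 2 neighbours in this order that were compared differed past the threshold.

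The response of Pik3r1 to dexamethasone was 0.66 in wild type (SE 0.254, adjusted p = 0.109) and 0.49 in knockout (SE 0.254, adjusted p = 0.36), neither called by limma. Without untreated wild-type array 4, which at 1.47 lay among the treated arrays, the wild-type difference was 0.89 and was called (adjusted p = 0.024). With array weights limma called the response in wild type (0.75, adjusted p = 0.0091), that in knockout (0.70, adjusted p = 0.041) and the difference between the untreated groups (-0.94, adjusted p = 0.011). The interaction was -0.17 (SE 0.36), with an interval from -0.94 to 0.60.

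The 4 probes of Pik3r1 gave different sizes. In a fit over all 26794 probes, the difference between the treated groups was -0.98 for A_51_P511236 and -0.49 for A_52_P235476 (SE 0.188, adjusted p = 0.077), the pair that lies nearest the 3′ end of the gene. The 2 probes printed above lie further toward the 5′ end and gave -0.55 (A_52_P307938, SE 0.387, adjusted p = 0.343, though the groups did not overlap) and 0.16 (A_52_P407239, SE 0.412, adjusted p = 0.822). Without dexamethasone A_52_P235476 was called lower in knockout (-0.80, SE 0.188, adjusted p = 0.0397 in limma). It lay between -0.06 and 0.22 on the wild-type arrays and between -1.18 and -0.37 on the knockout ones. The call of Pik3r1 between the treated groups thus rests on 1 of its 4 probes, and with the mean over the probes the difference was -0.47 (adjusted p = 0.13).

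Pik3ca, the p110-alpha catalytic subunit of PI3K, was 0.92, 1.07, 1.24 and 1.03 in untreated wild type, 1.10, 0.97, 0.92 and 1.17 in treated wild type and 0.97, 1.14, 1.31 and 0.90 in untreated knockout. It was 0.61, 0.78, 0.75 and 0.75 in treated knockout, below every array of the other groups. Limma did not call the difference between treated knockout and treated wild type (-0.31, SE 0.117, adjusted p = 0.0684) or between treated and untreated knockout (-0.35, SE 0.117, adjusted p = 0.117). With array weights both were called (-0.30, adjusted p = 0.03, and -0.39, adjusted p = 0.023), as was the first without untreated wild-type array 4 and untreated knockout array 1 (-0.31, adjusted p = 0.046). The other 3 groups had means of 1.04 to 1.08. The dimmer probe, A_52_P265002, gave -0.48 between the treated groups (SE 0.3, adjusted p = 0.286) and 0.032 with dexamethasone in knockout (SE 0.3), and its groups overlapped.

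Akt1, 1 of the 2 Akt kinases of liver measured here, was 3.01, 3.23, 3.08 and 2.98 in untreated wild type and 2.42, 2.74, 2.62 and 2.58 in treated wild type. In knockout it was 3.33, 3.02, 3.01 and 3.11 untreated and 3.09, 3.07, 3.19 and 3.16 treated. The treated wild-type arrays lay below the other 12 arrays, which spanned 2.98 to 3.33. Akt1 was lower with dexamethasone in wild type (log2 -0.48, SE 0.111, 1.4-fold, adjusted p = 0.0117 in limma). In knockout the difference was 0.0095 (SE 0.111, adjusted p = 0.979), with an interval from -0.23 to 0.25. The test of the difference between these responses gave 0.49 (SE 0.157, adjusted p = 0.0955) and did not pass. Without untreated knockout array 1, at 3.33 the highest of its group, it was 0.56 and passed (adjusted p = 0.026).

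Between the treated groups Akt1 was higher in knockout (log2 0.54, SE 0.111, 1.45-fold, adjusted p = 0.00365 in limma), a comparison that shares the treated wild-type arrays with the response in wild type. Between the untreated groups the difference was 0.044 (SE 0.111). Group means were 3.13 ± 0.058 in treated knockout, 3.12 ± 0.15 in untreated knockout, 3.07 ± 0.112 in untreated wild type and 2.59 ± 0.132 in treated wild type (SD, n = 4 each), and only the last differed past the threshold from a neighbour in this order. The dimmer probe A_52_P418014 gave -1.01 with dexamethasone in wild type (SE 0.388, adjusted p = 0.11) and 0.57 between the treated groups (SE 0.388, adjusted p = 0.331), and was not called. In knockout it gave -0.73 with dexamethasone (SE 0.388, adjusted p = 0.399), unlike the probe that stood for Akt1, and its interaction was 0.28 (SE 0.549). With the mean over both probes the difference between the treated groups was 0.55 and no longer called (adjusted p = 0.096).

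Akt2, the Akt form best known for the metabolic actions of insulin, was 2.54, 2.47, 2.56 and 2.05 in untreated wild type and 2.09, 2.03, 2.35 and 2.08 in treated wild type. It was 1.20, 2.47, 2.37 and 2.49 in untreated knockout and 2.27, 2.13, 2.56 and 2.79 in treated knockout. The groups overlapped and no difference was called. The response was -0.27 in wild type (SE 0.252, adjusted p = 0.542) and 0.30 in knockout (SE 0.252, adjusted p = 0.607). Untreated knockout array 1 stood apart at 1.20, and without it the knockout response was -0.01. The other probe of Akt2, A_51_P408044, gave -0.10 and 0.029 for the same responses (SE 0.15 each).

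Foxo1, the transcription factor that Akt inhibits, was 3.12, 3.52, 2.77 and 3.67 in untreated wild type and 3.68, 3.39, 3.81 and 4.22 in treated wild type. In knockout it was 2.90, 2.86, 2.54 and 2.78 untreated and 2.33, 2.74, 2.55 and 2.60 treated. All treated knockout arrays lay below all treated wild-type arrays, with a gap between 2.74 and 3.39, while 1 untreated wild-type array lay within the range of untreated knockout. The difference between the treated groups was -1.22 (SE 0.203, 2.33-fold, adjusted p = 0.000888 in limma).

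The second Foxo1 probe, A_52_P453884 at chr3:52475893-52475952, was 2.83, 2.61, 2.97 and 3.46 in treated wild type and 1.22, 1.72, 1.70 and 2.03 in treated knockout. Its difference was -1.30 (SE 0.214, 2.47-fold, adjusted p = 0.000868), so both probes of Foxo1 were called. The untreated groups differed by -0.50 (SE 0.203, adjusted p = 0.191) and, by the second probe, by -0.59 (SE 0.214, adjusted p = 0.155), where the groups did not overlap. Dexamethasone gave 0.51 in wild type (SE 0.203, adjusted p = 0.119) and -0.22 in knockout (SE 0.203, adjusted p = 0.664), neither called. The wild-type response was called with array weights (0.49, adjusted p = 0.043) and also when array 4 of untreated wild type and array 1 of untreated knockout were dropped (0.64, adjusted p = 0.046). The interaction was -0.72 (SE 0.286, adjusted p = 0.198) with an interval from -1.34 to -0.11, and was not called. Group means ran from 3.78 ± 0.342 in treated wild type over 3.27 ± 0.407 in untreated wild type and 2.77 ± 0.161 in untreated knockout to 2.56 ± 0.168 in treated knockout (SD, n = 4 each), and no step between neighbours passed the threshold by itself.

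Foxo3, a second FoxO factor, was not well above background in any group as a whole. Probe A_51_P145507 passed on 1, 1, 0 and 1 of 4 arrays in untreated wild type, treated wild type, untreated knockout and treated knockout, and probe A_52_P373852 passed on 0 arrays. No difference is given for it.

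**Figure D3:**
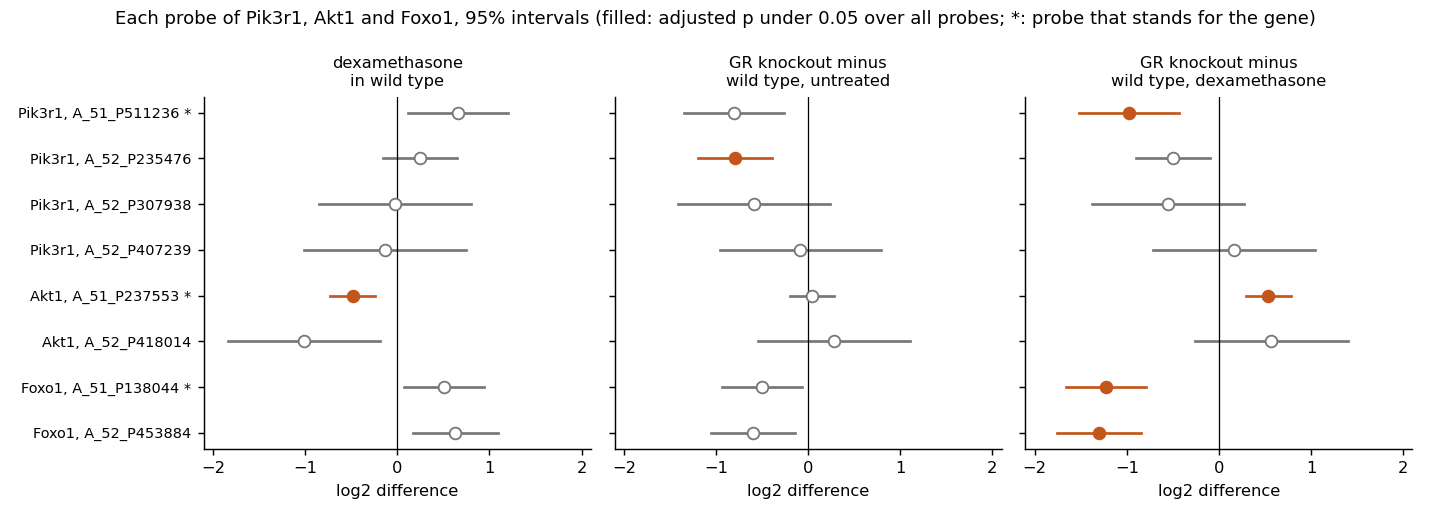
Log2 difference with its 95% interval for each probe of Pik3r1, Akt1 and Foxo1 in 3 comparisons, from limma over all probes; filled points have an adjusted p under 0.05 and an asterisk marks the probe that stands for the gene. Both Foxo1 probes are called lower in treated knockout, whereas 1 of the 4 Pik3r1 probes is.

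Promoter windows of 250 bases before to 50 after an annotated start were taken from RefSeq (GRCm38.p6), and 13 windows matched 8 of the 9 genes. Irs2 was among these 8, and Insr had no window. A core of the glucocorticoid receptor's motif, AGAACA on either strand (TGTTCT on the other), occurred in 0 of the 13 windows and in 19.0% of 32851 windows of all genes. The forkhead core TGTTTAC on either strand (GTAAACA on the other), a form that FoxO factors can bind, occurred in 1 of the 13 and in 3.65% of all windows. Neither motif contains the other. A match describes letters in a window and no bound site, and a window without one leaves the rest of the gene unread. GC content was between 43.7% and 79.7% in the 13 windows (median 61.3%), against a median of 52.7% over all windows.

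The window with the forkhead core belongs to 1 of the annotated starts of Akt1, and its 250 bases before the start are shown with the core in capitals, 161 bases before the start (GRCm38.p6, chr12:112674885-112675134, minus strand). The same stretch of Foxo1 is shown since its transcript differed most between the treated groups (chr3:52268087-52268336, plus strand), and holds neither motif.
Akt1: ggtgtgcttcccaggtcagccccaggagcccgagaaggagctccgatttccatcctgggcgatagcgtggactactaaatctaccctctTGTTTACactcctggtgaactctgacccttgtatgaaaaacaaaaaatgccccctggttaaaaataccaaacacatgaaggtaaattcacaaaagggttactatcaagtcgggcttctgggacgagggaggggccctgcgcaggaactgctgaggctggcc
Foxo1: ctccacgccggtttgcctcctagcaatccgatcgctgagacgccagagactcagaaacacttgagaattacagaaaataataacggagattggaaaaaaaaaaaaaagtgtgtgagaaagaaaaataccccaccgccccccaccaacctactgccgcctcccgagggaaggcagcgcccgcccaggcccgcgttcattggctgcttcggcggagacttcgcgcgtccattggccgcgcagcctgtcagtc

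The genes most like each called gene were sought among 12837 genes with a symbol and signal above background on every array, by the root mean square difference of mean-centred log2 levels over the 16 arrays. Closest to Foxo1, whose own level varied with an SD of 0.552, were Mtss1, which encodes a membrane- and actin-binding protein (0.164), Pptc7, for a mitochondrial phosphatase (0.182), and Kcnn2, for a calcium-activated potassium channel (0.19). Closest to Pik3r1 (SD 0.645) were Slc25a29, for a mitochondrial carrier of basic amino acids (0.229), Gpt2, for a mitochondrial alanine transaminase (0.268), and Nol8, for a nucleolar protein (0.281). Closest to Akt1 (SD 0.255) were Ap5z1, for a subunit of an adaptor complex (0.102), Rce1, for a protease of prenylated proteins (0.106), and Med11, for a Mediator subunit (0.106). Between the treated groups the differences were -1.18, -1.34 and -1.18 for the 3 genes near Foxo1, -0.88, -1.11 and -1.04 for those near Pik3r1, and 0.50, 0.59 and 0.47 for those near Akt1. These genes were picked for likeness over the same 16 arrays, so differences like those of the called genes follow from the choice.

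The other genes of the pathway were described by 5 lists with 73 genes, of which 72 were tested. Between treated knockout and treated wild type 13 were called higher and 7 lower, where 14.2% of all genes were called higher and 8.20% lower, and the median difference over the 72 was 0.056. In treated wild type against untreated, 3 were called higher and 12 lower (median -0.12), beside 5.11% and 6.88% of all genes. In knockout, dexamethasone left 0 called higher and 1 lower (all genes 1.19% and 2.44%), and the untreated genotypes differed in 2 higher and 1 lower (all genes 2.06% and 0.751%). The interaction was called for 7, 4 of them positive, and for 4.63% of all genes. Of the 20 called between the treated groups, 14 kept the call with each of the 8 arrays left out in turn, as did 7 of the 15 called with dexamethasone in wild type.

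Among 15 other genes tested between receptor and PI3K, 1 rose and 0 fell in treated knockout relative to treated wild type. Over all genes tested 14.2% rose and 8.20% fell there. Pik3r2, a second PI3K regulatory subunit, was 0.59 higher (SE 0.14, 1.5-fold, adjusted p = 0.00822 in limma). It thus differed in the direction opposite to Pik3r1, though it was not called under normexp background correction. It was also the 1 gene of the list called with dexamethasone in wild type, where 5.11% of all genes rose and 6.88% fell. Pik3r2 fell there by 0.51 (log2 -0.51, SE 0.14). That call ended when any of 6 of the 8 arrays was left out (adjusted p up to 0.086).

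Of 13 brakes on insulin signalling, 3 rose and 0 fell in treated knockout against treated wild type, where 14.2% of all genes rose, and 3 fell and 0 rose with dexamethasone in wild type, where 6.88% of all genes fell. Socs1, a suppressor of cytokine signalling that also acts on the insulin receptor and its adaptors, was 1.22 higher in treated knockout (SE 0.293, adjusted p = 0.0086) and fell by 1.35 with dexamethasone in wild type (log2 -1.35, SE 0.293, adjusted p = 0.00857). The receptor tyrosine phosphatase Ptprf was 0.74 higher (SE 0.15, adjusted p = 0.00333) and fell by 0.76 (log2 -0.76, SE 0.15, adjusted p = 0.00489). Grb14, an adaptor that inhibits the receptor kinase, fell by 0.81 in wild type (log2 -0.81, SE 0.149, adjusted p = 0.00339). It was 0.45 higher in treated knockout (SE 0.149, adjusted p = 0.0439), a call that ended when any of 6 of the 8 arrays was left out (adjusted p up to 0.12).

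Among 18 outputs of Akt and members of the mTOR complexes, 2 rose and 1 fell in treated knockout against treated wild type. Over all genes tested 14.2% rose and 8.20% fell there. With dexamethasone in wild type 4 of the 18 fell and 0 rose, where 6.88% of all genes fell and 5.11% rose. Mlst8, a subunit shared by both mTOR complexes, was 0.84 higher in treated knockout (SE 0.122, 1.79-fold, adjusted p = 0.000367 in limma). Deptor, an mTOR inhibitor, was 0.62 higher (SE 0.201), a call lost without 7 of the 8 arrays (adjusted p up to 0.11). In wild type Deptor (log2 -0.77, SE 0.201), Tsc1, a subunit of the complex that restrains mTOR (log2 -0.58, SE 0.159), Mlst8 (log2 -0.47, SE 0.122) and Pde3b, a phosphodiesterase that Akt activates (log2 -0.47, SE 0.123), fell, but the calls were lost without 4, 6, 4 and 4 of the 8 arrays in turn (adjusted p up to 0.073, 0.10, 0.071 and 0.085). Foxo4, a FoxO factor like Foxo1, was higher in untreated knockout than in untreated wild type (log2 2.30, SE 0.424, adjusted p = 0.012) and fell with dexamethasone in knockout (log2 -2.26, SE 0.424, adjusted p = 0.0098). It was not called in these comparisons when only the groups compared were fitted. In treated knockout it was 1.25 lower than in treated wild type, a call that was lost without 7 of the 8 arrays (adjusted p up to 0.13).

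Of 14 target genes of FoxO factors, 1 rose and 5 fell in treated knockout against treated wild type. Among all genes tested 14.2% rose and 8.20% fell there. Foxo1 was lower in this comparison as well, and a link between Foxo1 and the 14 genes was not tested. Igfbp1, a secreted binding protein for insulin-like growth factors, was 15.3-fold lower (log2 -3.94, SE 0.624, adjusted p = 0.00064 in limma), the cyclin gene Ccng2 3.58-fold lower (log2 -1.84, SE 0.246, adjusted p = 0.000209) and Pck1, the PEPCK gene of glucose production, 2.98-fold lower (log2 -1.58, SE 0.353, adjusted p = 0.00592). Gadd45a, a stress and DNA damage response gene, went the other way and was 20.1-fold higher (log2 4.33, SE 0.304, adjusted p = 5.01e-06). The treated knockout arrays were at 2.46, 2.51, 2.43 and 1.93 for Gadd45a, and the treated wild-type arrays at -2.12, -1.49, -2.48 and -1.90.

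With dexamethasone in wild type 2 of the 14 rose and 2 fell, where 5.11% of all genes rose and 6.88% fell. Ccng2 rose by 1.45 (SE 0.246, adjusted p = 0.00221) and Sesn1, a sestrin of the stress response, by 0.88 (SE 0.224, adjusted p = 0.019). Gadd45a fell by 1.85 (log2 -1.85, SE 0.304, adjusted p = 0.00184) and G6pc, glucose-6-phosphatase, by 0.70 (log2 -0.70, SE 0.216, adjusted p = 0.0488). The calls of Sesn1 and G6pc were lost without 2 and 7 of the 8 arrays (adjusted p up to 0.055 and 0.14). In untreated knockout G6pc was 1.30 lower than in untreated wild type (log2 -1.30, SE 0.216, adjusted p = 0.0086) and Gadd45a 1.82 higher (SE 0.304, adjusted p = 0.00877), though Gadd45a was not called when only these groups were fitted. Igfbp1 was 2.42 lower there, short of the threshold (log2 -2.42, SE 0.624, adjusted p = 0.0509). The median difference between the treated groups was -0.40 over the 14 genes and 0.0909 over all genes.

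Of 12 liver genes that insulin induces, 6 rose and 1 fell in treated knockout against treated wild type. Over all genes tested 14.2% rose and 8.20% fell there. The calls of 3 of the 6, Acaca, Fasn and Elovl6, ended when any of 7, 6 and 4 of the 8 arrays was left out (limma adjusted p up to 0.11, 0.084 and 0.064). Treated wild-type arrays 2 and 4 and treated knockout arrays 2 and 3 were among these for all 3. Srebf1, a driver of fatty acid synthesis, was 12.4-fold higher (log2 3.63, SE 0.524), Pnpla3, a lipid droplet hydrolase, 5.47-fold (log2 2.45, SE 0.598) and Acly, ATP citrate lyase, 4.1-fold (log2 2.04, SE 0.324), with adjusted p = 0.000356, 0.00961 and 0.000664 in limma. Pnpla3 was dim on the treated wild-type arrays (-3.94, -2.97, -4.86 and -5.49), so its fold difference is set against low signal. Ppp1r3c, which targets a phosphatase to glycogen, was 6.17-fold lower (log2 -2.63, SE 0.396, adjusted p = 0.000463 in limma). Its response to dexamethasone was 3.30 in wild type (SE 0.396, adjusted p = 0.000291) and smaller in knockout by 2.77 (interaction log2 -2.77, SE 0.56, adjusted p = 0.0128). In wild type, 1 of the 12 rose with dexamethasone, Ppp1r3c, and 2 fell, Srebf1 (log2 -2.57, SE 0.524, adjusted p = 0.00602) and Acly (log2 -1.31, SE 0.324, adjusted p = 0.0167). Shares of all genes there were 5.11% higher and 6.88% lower. The call of Acly was lost without 2 of the 8 arrays, untreated wild-type arrays 1 and 2 (adjusted p up to 0.063).

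**Figure D4:**
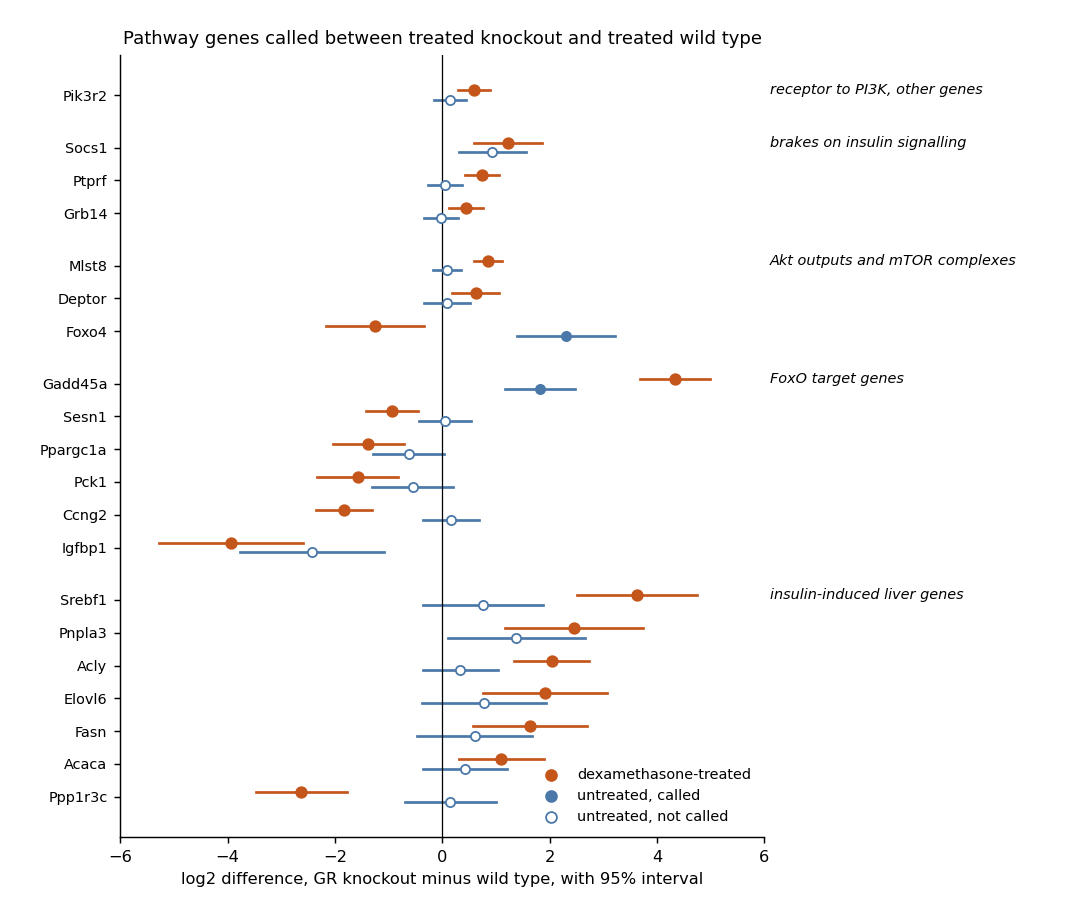
Log2 difference between knockout and wild type with its 95% interval for the 20 pathway genes called between the treated groups (orange), beside the same difference between the untreated groups (blue, filled where called), grouped by list. Untreated, 2 of the 20 are called, Gadd45a higher and Foxo4 higher, and Foxo4 lies on opposite sides of 0 with and without dexamethasone.

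Markers of liver cell types moved beside these differences. Between the treated groups 4 of 8 hepatocyte markers were lower in knockout, where 8.20% of all genes were lower and 14.2% higher. Hnf4a, a transcription factor of hepatocytes, was lower by 1.14 (log2 -1.14, SE 0.17, adjusted p = 0.000437), and Apoa1, Ass1 and Cyp2e1 by 0.80, 0.83 and 0.53 (log2 -0.80, -0.83 and -0.53). Alb, Ttr, Apob and Fgb were not called (log2 -0.06, 0.13, -0.18 and -0.22). The log2 of the summed signal of the 8 hepatocyte markers was 11.34 to 11.57 in treated knockout and 11.67 to 11.85 in treated wild type. Of 7 Kupffer cell, 6 sinusoidal endothelial and 7 stellate cell markers 0 were called there. Of 7 lymphocyte markers 1 was higher and 1 lower, with sums of 0.22 to 0.81 in knockout and 0.40 to 0.88 in wild type, and of 5 cholangiocyte markers 1 was lower. With dexamethasone in wild type, where 5.11% of all genes were higher and 6.88% lower, 1 hepatocyte marker, Hnf4a, was higher (log2 0.58, SE 0.17). Of the 7 lymphocyte markers 2 were lower there, with sums of 0.94 to 1.15 untreated and 0.40 to 0.88 treated. Of the 6 endothelial markers, Lyve1 was higher and Kdr lower with dexamethasone in both genotypes (log2 2.41 and -1.13 in wild type, 2.58 and -1.03 in knockout). Of the 5 cholangiocyte markers Sox9 was higher with dexamethasone in wild type (log2 1.35, SE 0.359). With dexamethasone in knockout 3 of 7 lymphocyte markers were lower, with sums of 1.19 to 2.11 untreated and 0.22 to 0.81 treated. Over all genes 1.19% were higher and 2.44% lower there. Ms4a1, a lymphocyte marker called lower with dexamethasone in both genotypes (log2 -2.39 and -3.06), was above background on only 8 of 16 arrays. Its differences were thus read in part from signal near background, and it may have passed the filter only where it was high. Between the untreated groups 1 of the 8 hepatocyte markers was called, Apoa1, lower in knockout (log2 -0.88, SE 0.18, limma adjusted p = 0.0202). Over all genes 2.06% were higher and 0.751% lower there. No marker of another cell type was called there, and the median difference over the 7 Kupffer cell markers was 0.48. Lep, an adipocyte marker, was above background on 0 arrays, and Adipoq of adipocytes and Pnlip of pancreas on at most 2. The other adipocyte markers were detected more often, Cidec on 16 arrays and Plin1 on 11. So were the other pancreatic markers, Ctrb1 and Cel on 16, Cela1 on 14 and Cpa1 on 6. None of these was called in any comparison. Cidec came nearest, higher in untreated knockout than in untreated wild type (log2 2.46, SE 0.634, limma adjusted p = 0.0509). The part of these markers in the differences of Foxo1, Pik3r1 and Akt1 was not tested.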

How the data were processed

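Agilent Feature Extraction 9.5 made the files from 1-colour scans, per the submitters' processing notes. The deposited files hold each spot's processed signal, an intensity with background already subtracted, and flags of other kinds (above background, saturated, outlying), per the file headers. A deposited table of the series held the same intensity (largest difference 0). No scaling between arrays was seen in these values.

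Controls were dropped, 2121 outlying spots (0.31%) became missing, repeated spots were averaged, and log2 signals were centred at the 75th percentile of their array. A probe had to be well above background on 3 or more of the 4 arrays of some group (26794 probes), and a gene was read from its brightest probe on average. RefSeq supplied current names by accession for 22951 probes and by symbol or synonym for 9767. Limma 3.58.1 (R 4.3.3) fitted the 4 group means over 16 arrays with 12 residual degrees of freedom. Tests were two-sided and adjusted by Benjamini-Hochberg over all genes. The fit was tested on simulated data.

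The 9 genes, the lists and the tests were chosen with earlier results of these data known. Up to 4 called genes of each list were named per comparison, those with the largest difference, and 3 most-alike genes for each called gene. The lists and their counts leave out 2 genes that are not reported here. Same-numbered arrays were not treated as pairs: over 24 such pairs, residual correlations ran from -0.186 to 0.347 (median 0.0754), 10 exceeded 0.1, and the labels name no shared animal or day. Other settings tried were normexp (offset 50), quantile scaling, other percentiles, filters and probe rules, keeping outlying spots, trended robust variance, array weights, a replicate block, the table of the series, fitting only both groups at hand, and dropping each array.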

Additional observations from a re-analysis of the deposited data

Results flagged for a closer look

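In groups of 4 arrays, a highest or lowest value was singled out where its gap to the nearest array was a large share of the group's range (Dixon's test at the 95% level), which chance gives in about 1 of 20 groups. Of 164 groups of values tested, 13 passed, with 7 at untreated knockout array 1, 4 at untreated wild-type array 4 and 2 at treated knockout array 4.

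At untreated knockout array 1 these were Insr at -3.15 (others -3.81 to -3.75), the dim Akt1 probe A_52_P418014 at -0.55 (others -2.53 to -2.22), Akt2 at 1.20 (others 2.37 to 2.49) and D630014A15Rik at -0.20 (others 0.84 to 0.91). The pathway genes Deptor at 5.95 (others 5.06 to 5.19), Grb14 at 4.32 (others 3.74 to 3.81) and Pik3r2 at 2.86 (others 2.25 to 2.31) lay apart on the same array. At untreated wild-type array 4 the Akt2 probe A_51_P408044 was 0.18 (others 0.44 to 0.47), the Foxo3 probe A_51_P145507 was -3.73 (others -5.91 to -5.61), Acaca was -1.20 (others 0.51 to 0.73) and Pnpla3 was -5.06 (others -3.43 to -3.19). At treated knockout array 4 the Irs1 probe A_52_P171212 was -3.54 (others -3.97 to -3.91) and Gadd45a was 1.93 (others 2.43 to 2.51).

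The response to dexamethasone differed between the genotypes, by the interaction in limma at an adjusted p under 0.05, for 7 pathway genes and for 0 of the 7 insulin signalling genes tested (2 at an unadjusted p under 0.05). The interaction, response in knockout minus response in wild type, was -3.55 for Foxo4, -2.77 for Ppp1r3c, -2.00 for Ccng2, 2.51 for Gadd45a, 2.86 for Srebf1, 1.70 for Acly and 0.76 for Mlst8. The calls of Acly, Srebf1 and Mlst8 did not survive leaving out single arrays: 13, 12 and 2 of the 16 arrays ended them (adjusted p up to 0.11, 0.089 and 0.053).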

How the results depend on the processing

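The calls of Akt1, Foxo1 and Pik3r1 between the treated groups and of Akt1 in wild type were kept with each array left out in turn (ranges 0.48 to 0.59, -1.35 to -1.08, -1.07 to -0.90 and -0.53 to -0.43). With the mean over probes 1 of the 3 between the treated groups was called, Foxo1. With array weights 4 of the 7 genes were called with dexamethasone in wild type, 2 in knockout, 1 for the interaction and 1 between the untreated groups. Leaving out 1 array gave 1 to 2 genes called with dexamethasone in wild type (2 without untreated wild-type array 4) and 0 to 1 for the interaction (1 without untreated knockout array 1). Without both these arrays, a choice made after seeing the data, 3 and 1 were called. With the replicate block, which treats same-numbered arrays as paired, the counts stayed at 1, 0, 0, 0 and 3 in the order wild type, knockout, interaction, untreated and treated genotypes. Probe A_52_P254174 of Nr3c1 gave -1.62 (adjusted p = 0.10) untreated and -0.97 (adjusted p = 0.20) treated. Counts of pathway genes called were 15, 1, 7, 3 and 20 in this order. Normexp gave 0 in knockout and 4 for the interaction, and array weights gave 23 in wild type, 7 in knockout, 16 for the interaction and 6 untreated. Quantile normalization, the mean over probes and the replicate block gave 2 in knockout, no filter on dim probes gave 4 for the interaction, and only the groups compared gave 0 in knockout and 1 untreated. Single arrays moved these counts by over 1.5 times: without untreated wild-type array 1 or 2 and treated wild-type array 1 the count in wild type was 9, 9 and 8, without untreated knockout arrays 1, 2 and 4 and treated knockout array 4 that in knockout was 3, 2, 3 and 3, and the interaction was 11 without untreated knockout array 1 and 4 without treated wild-type array 1 or treated knockout array 3. Over all genes, normexp called 1205, 58, 102, 84 and 2388 in the same order, against 2218, 671, 856, 521 and 4153. Array weights called 5011, 1795, 2714, 1574 and 6688, quantile normalization 1087 with dexamethasone in knockout, and a fit of only the groups compared 129 there and 90 between the untreated groups.

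Called sizes reversed once, for Pik3r1 between the treated groups by probe A_52_P407239 (0.16). The other reversals were of differences that were not called, and their cause was not tested. With dexamethasone in wild type Insr was 0.01 with quantile normalization and without both arrays, Pik3ca 0.01 with normexp, 0.05 with the mean over probes, 0 with array weights and 0.12 by probe A_52_P265002, and Pik3r1 -0.02 by A_52_P307938 and -0.13 by A_52_P407239. With dexamethasone in knockout Akt1 was -0.04 with normexp, -0.01 with quantile normalization, 0 with outlying spots kept, -0.36 with the mean over probes and -0.73 by A_52_P418014, Akt2 -0.01 without both arrays and Pik3ca 0.03 by A_52_P265002. For the interaction Pik3r1 was 0.10 with the mean over probes, 0.30 by A_52_P235476, 0.03 by A_52_P307938 and 0.25 by A_52_P407239, and Irs1 0.16 with array weights and 0.24 without both arrays. Between the untreated groups Insr was 0.08 with normexp, Pik3ca -0.19 with the mean over probes and -0.39 by A_52_P265002, Akt1 -0.05 with array weights and -0.06 without both arrays, and Irs1 -0.15 and -0.23 likewise. Between the treated groups Insr was -0.15 with quantile normalization and -0.01 with array weights, and Irs1 -0.04 with the mean over probes and -0.09 by A_52_P171212. Leaving out 1 array turned the sign within these ranges: with dexamethasone in wild type Insr -0.20 to 0.03 and Pik3ca -0.07 to 0.03, in knockout Akt1 -0.03 to 0.08 and Akt2 -0.01 to 0.43, for the interaction Irs1 -0.38 to 0.13 and Pik3r1 -0.40 to 0.02, untreated Akt1 -0.03 to 0.10, Akt2 -0.40 to 0.04, Irs1 -0.13 to 0.26 and Pik3ca -0.06 to 0.07, and treated Insr -0.04 to 0.20 and Irs1 -0.29 to 0.20.

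Slide and group cannot be told apart. The 4 arrays per group limit the precision, and Foxo3 was too dim to measure.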
